A study of Mus musculus with 3 samples.

Results

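The genes described here encode 8 proteins that mouse oocytes use at fertilization: the egg coat genes Zp1, Zp2 and Zp3, the sperm receptor gene Izumo1r, the tetraspanin genes Cd9 and Cd81, the protease gene Astl and the calcium channel gene Itpr1. They were chosen by name for these roles, and their members in the data are the 2 kb windows that overlap the GENCODE M21 gene bodies on GRCm38, 233 of the 1186323 valid windows of the genome and 8 of the 21067 protein-coding genes with a valid window. The mark was profiled with a native ChIP-seq protocol for ultra-low input, in which unfixed chromatin is cut by micrococcal nuclease and precipitated with an antibody. There were 3 replicates, each a pool of about 280 oocytes at the germinal vesicle (GV) stage. All pools came from wildtype C57BL6/Babr mice aged 25 days and form a single group, so no comparison between conditions was possible. A GV oocyte is a grown oocyte that is still arrested with an intact nucleus. Each value is an average over a pool, so the share of oocytes that carry the mark and its density in each cannot be told apart.

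H3K36me3, trimethylation of lysine 36 of histone H3, is laid down along gene bodies by enzymes that travel with elongating RNA polymerase II, and in growing oocytes it marks the transcribed units over which DNA methylation is gained. H3K4me3 is typical of active promoters and also forms broad intergenic domains in oocytes, while H3K27me3 is a Polycomb mark of silent genes. The zona pellucida is the glycoprotein coat that oocytes secrete while they grow, sperm bind to it and then fuse with the egg membrane, and fusion sets off calcium release, exocytosis of cortical granules and cleavage of the coat.

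Upstream sequences are shown for genes of the 3 classes of start window met below, with CpG dinucleotides in capitals, because the marks at the starts differ between these genes. The window of each start was called for H3K36me3 and H3K4me3 in Zp3 and Astl, for H3K4me3 alone in Cd9 and for H3K4me3 with H3K27me3 in Cd81. The sequences come from RefSeq (GRCm38.p6), which gave an entry for 5 of the 8 genes (Zp3, Cd9, Cd81, Izumo1r and Astl) and none for Zp1, Zp2 and Itpr1. Each runs 5′ to 3′ on the strand of the gene over 200 bases, from 250 to 51 bases before the RefSeq start, at chr5:135979855-135980054 (plus strand) for Zp3, chr2:127338389-127338588 (plus strand) for Astl, chr6:125494811-125495010 (minus strand) for Cd9 and chr7:143052500-143052699 (plus strand) for Cd81.
Zp3: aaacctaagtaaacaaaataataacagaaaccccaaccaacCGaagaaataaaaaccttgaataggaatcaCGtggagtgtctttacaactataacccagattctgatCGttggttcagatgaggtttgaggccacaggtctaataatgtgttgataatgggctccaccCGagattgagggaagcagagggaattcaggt
Astl: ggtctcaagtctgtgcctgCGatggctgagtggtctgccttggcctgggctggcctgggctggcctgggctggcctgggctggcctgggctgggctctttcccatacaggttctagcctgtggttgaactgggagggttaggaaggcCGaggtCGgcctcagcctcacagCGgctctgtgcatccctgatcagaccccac
Cd9: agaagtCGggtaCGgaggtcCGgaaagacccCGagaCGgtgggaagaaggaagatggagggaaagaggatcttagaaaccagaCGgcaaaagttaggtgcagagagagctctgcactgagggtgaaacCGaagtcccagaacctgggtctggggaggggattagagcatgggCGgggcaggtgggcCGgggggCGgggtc
Cd81: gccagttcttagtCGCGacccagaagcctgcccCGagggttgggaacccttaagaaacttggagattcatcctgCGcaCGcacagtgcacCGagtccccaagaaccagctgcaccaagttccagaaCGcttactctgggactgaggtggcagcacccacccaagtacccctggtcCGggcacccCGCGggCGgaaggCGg

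The stretch upstream of Zp3 held 4 CpG and that of Astl 4, the median over the 32851 RefSeq promoters, while that of Cd9 held 10 and that of Cd81 12. Of all promoters, 73.3% had as few CpG as Cd9 or fewer and 77.9% as few as Cd81 or fewer. Upstream of Izumo1r the same stretch held 1 CpG and is not printed, since it overlaps the GENCODE body of that gene. The E-box CANNTG, which reads the same on both strands, occurred 2 times upstream of Zp3 and 1 time each upstream of Cd9, Cd81 and Izumo1r. It occurred 0 times in the printed stretch of Astl, against at least 1 time in 59.0% of all promoters. RefSeq lists a second start for Astl, inside its body, whose stretch held 3 E-boxes and 1 CpG and is not printed. Of all promoters, 7.59% had 3 or more E-boxes. TATAAA was searched on both strands and occurred in none of these stretches, against 9.14% of all promoters. A match is a description of letters and not of a bound site.

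The 3 libraries held 7888140, 2692510 and 3166564 reads in valid windows, so 1 read was worth 0.136, 0.396 and 0.338 RPKM (reads scaled to window and depth, by the authors' name). A window was called for H3K36me3 when the mean of the replicates was above 1 RPKM. Within a single library a value above 1 takes 8 reads in replicate 1 and 3 reads in replicates 2 and 3. The 8 bodies held 7581 reads in all. Less antibody went into replicate 2, and whether that moved any value was not tested. Of 10 oocyte marker genes, 9 were above 1 RPKM, beside 52.5% of all protein-coding genes (summed level between 16.0 and 21.0 per replicate), led by Bmp15 at 3.73 ± 1.03 and Nobox at 2.93 ± 1.29 (SD, n = 3), with Npm2 at 1.20 ± 0.44 and Zar1 at 0.224 ± 0.042, from 8 reads, lowest. Of 10 granulosa cell markers, the cells that surround the oocyte, 4 were above 1, beside the same 52.5% (summed level between 7.28 and 9.08): Nr5a1 stood at 1.59 ± 0.07, Hsd17b1 at 1.40 ± 0.12, Fshr at 0.353 ± 0.031 and Wt1 at 0.349 ± 0.204. Amh at 1.39 ± 0.68 and Inhba at 1.05 ± 0.33 were also above 1, Foxl2 was at 0.420 ± 0.303, and no marker was at 0. Above 1 in each replicate were 7 of the oocyte and 2 of the granulosa markers, beside 46.5% of all protein-coding genes. The part of these markers in the results below was not tested.

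Of the 8 genes, 7 had a mean level above 1 RPKM, and the same count was above 1 in each replicate, beside 52.5% and 46.5% of all protein-coding genes. Their median was 2.30 RPKM, against 1.10 over all protein-coding genes, whose middle 50% lay between 0.394 and 1.94. Of the 233 windows, 219 (94.0%) were called, against 31.8% of all valid windows. Itpr1 alone supplied 168 of the 233 windows and 166 of the 219 calls, and the other 7 genes had 53 of 65 windows called (81.5%). Every valid window was called in 4 of the 8 genes (Zp1, Zp2, Zp3 and Astl), as in 11.3% of protein-coding genes. The exception was Cd81, with 0 of 8 windows called.

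**Figure D1:**
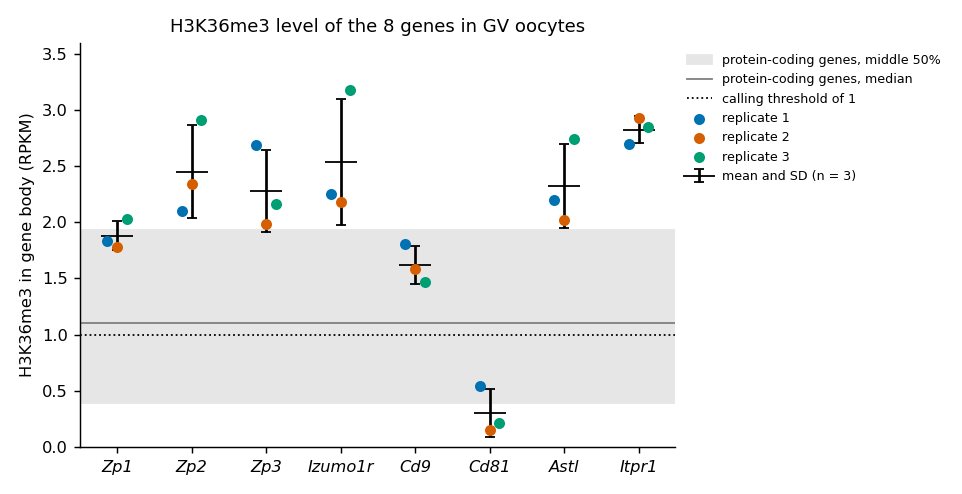
H3K36me3 level over the gene body (RPKM, linear axis) of the 8 genes in role order, with each replicate as a point and the mean with its SD (n = 3) as a bar, beside the median and middle 50% of protein-coding genes (grey) and the calling threshold of 1 (dotted). All 3 points of 7 genes lie above 1, and those of Cd81 lie between 0.149 and 0.543.

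In order of level the genes ran Itpr1 (2.83 ± 0.12), Izumo1r (2.54 ± 0.56), Zp2 (2.45 ± 0.41), Astl (2.32 ± 0.37), Zp3 (2.28 ± 0.37), Zp1 (1.88 ± 0.13), Cd9 (1.62 ± 0.17) and Cd81 (0.301 ± 0.212 RPKM, SD, n = 3). Of the 7 pairs of neighbours in this order, only Cd9 and Cd81 differed by more than the spread of their difference, by 1.32 ± 0.10 RPKM and in the same direction in 3 of 3 replicates. An exact permutation test that flips signs over the replicates (two-sided) gave p = 0.25, the smallest it can give with 3, and 0.583 after Benjamini-Hochberg adjustment over the 7 pairs. The other 6 steps between neighbours were within their spread. Of these, Zp3 over Zp1 and Zp1 over Cd9 were also positive in 3 of 3 replicates, with the same permutation p-values. Pairs further apart in the order were not compared.

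Zp1, Zp2 and Zp3 encode the glycoproteins of the egg coat: ZP1 links the filaments, ZP2 carries the site that sperm bind and that is cut after fertilization, and ZP3 is the partner with which ZP2 forms the filaments. Zp1 (chr19:10914287-10920632, minus strand, 6346 bases) had levels of 1.83, 1.78 and 2.03 RPKM in replicates 1, 2 and 3 from 96 reads. Zp2 (chr7:120126772-120145291, minus strand) had 2.10, 2.34 and 2.91 from 300 reads. Zp3 (chr5:135980099-135988624, plus strand) had 2.69, 1.98 and 2.17 from 156 reads. The replicates did not share an order over these genes, since replicate 3 was highest for Zp1 and Zp2 and replicate 1 for Zp3. Among genes within 1.5 times of its own length, Zp1 was higher than 85.0%, Zp2 than 90.9% and Zp3 than 91.8%.

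Within the 3 coat genes the window with the highest mean was the first or second of the body. In Zp3 the start window reached 3.26, 3.57 and 5.08 RPKM, and the last window of the body 2.04, 1.98 and 1.02. In Zp2 the second window had the highest mean, at 4.07, 2.38 and 4.06, and in Zp1 the second window, at 2.58, 2.77 and 2.37. Single replicates did not all share this. The last window of Zp2, at 1.36, 3.96 and 4.74, was above its second in replicates 2 and 3. The third window of Zp1 was above its second in replicate 3, at 3.05. All 3 replicates of Zp3 were thus higher at the start than at the end, without overlap. The 3′ part of the Zp3 body was lower than the 5′ part by a log2 ratio of -0.96 (SE 0.32, 95% interval -1.69 to -0.22), which missed the threshold in limma (adjusted p = 0.075). It passed with edgeR on the recovered reads (adjusted p = 0.039). For Zp1 the same log2 ratio was -0.48 (interval -1.51 to 0.56) and for Zp2 -0.11 (-0.60 to 0.38).

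The upstream flank is given for each coat gene in turn, and the difference between the genes was not tested. Upstream of Zp1 the 10 kb flank (5 windows) held 0.842, 0.555 and 0.677 RPKM, below the body in every replicate. The log2 ratio of body to upstream flank was 1.34 (SE 0.34, limma adjusted p = 0.024), a call shared by 29.3% of protein-coding genes in this direction, beside 4.98% called lower. The call did not hold when any 1 replicate was left out (adjusted p = 0.122, 0.0758 and 0.0796 without replicates 1, 2 and 3). Upstream of Zp2 the flank was as high as the body, at 2.42, 2.22 and 3.11 RPKM (log2 ratio -0.07, interval -0.61 to 0.46, adjusted p = 0.842). Upstream of Zp3 it was at 1.77, 2.38 and 1.49 (log2 ratio 0.28, interval -0.43 to 0.99, adjusted p = 0.519). Neither Zp2 nor Zp3 had a detectable step at its start at this depth.

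Downstream no coat gene had a detectable step either. The log2 ratio of body to downstream flank was 0.25 for Zp1 (interval -0.47 to 0.97), 0.03 for Zp2 (-0.51 to 0.57) and -0.14 for Zp3 (-0.84 to 0.55), with limma adjusted p-values of 0.578, 0.943 and 0.752. Among protein-coding genes 23.4% were called higher in the body than downstream and 8.35% lower.

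The called domains over the coat genes took in their neighbours. A run of directly adjacent called windows covered Zp1 and reached 16.3 kb past its end into Prpf19, a spliceosome gene on the other strand, with a length of 24 kb. Prpf19 itself stood at 1.80, 1.88 and 1.69 RPKM, and on the upstream side Ptgdr2, 16.5 kb away, at 1.83, 0.694 and 1.44. The run over Zp2 was 64 kb long and took in Tmem159 (1.88 ± 0.40) and the noncoding gene 4930505K13Rik, and beyond it Anks4b stood at 2.17 ± 0.49. The run over Zp3 was 86 kb long and took in Ssc4d (2.22 ± 0.44) and Dtx2 (2.75 ± 0.33, SD, n = 3) on either side, and Upk3b. Of the 75026 runs in the genome the median was 4 kb, 1490 were longer than that of Zp2 and 756 longer than that of Zp3. These lengths depend on the rule. With a call above 1 in each replicate they fell to 6, 14 and 12 kb for Zp1, Zp2 and Zp3. None of these shorter runs held another gene. At a threshold of 1.5 only Ssc4d remained of the coding neighbours. The run over Zp1 was also 6 kb long, and left out Prpf19, without replicate 1 and without replicate 3. Without replicate 2 the run over Zp2 was 44 kb long and left out Tmem159. That over Zp3 was then 34 kb long and kept Ssc4d alone.

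**Figure D2:**
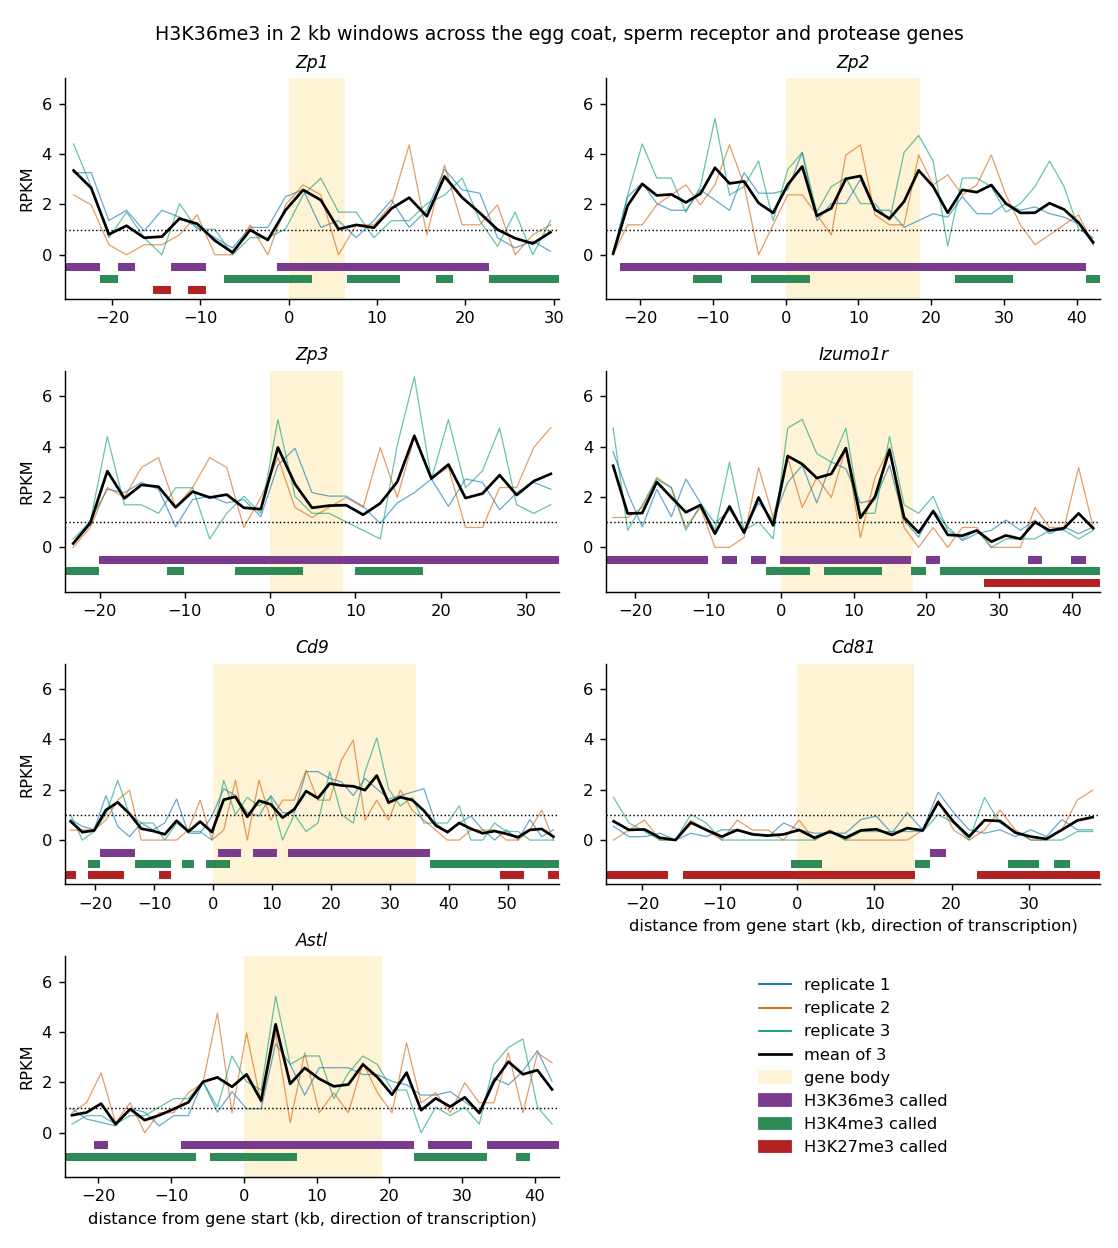
H3K36me3 (RPKM, linear axis) in 2 kb windows against distance from the gene start (kb, along transcription) for 7 genes, with the 3 replicates (thin), their mean (black), the gene body (shaded), the threshold of 1 (dotted) and the called marks as strips below 0. Zp2 and Zp3 sit inside longer called domains, and the bodies of Izumo1r and Cd9 stand above both flanks. The body of Cd81 is called for H3K27me3 throughout.

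Izumo1r, also known as Juno, encodes the egg membrane receptor for the sperm protein IZUMO1. Its body (chr9:14885814-14903949, minus strand, 10 windows) had levels of 2.25, 2.18 and 3.18 RPKM from 315 reads, with replicate 3 highest, and 94.2% of protein-coding genes were lower. The called run was 18 kb long and reached from 0.051 kb before the gene start to 0.187 kb inside the gene end, with no other gene in it. Its length depended on the rule and on replicate 1: it was 10 kb, ending 8.19 kb inside the gene end, without replicate 1 and likewise with a call in each replicate, and 64 kb when 1 window was bridged. Run edges can only fall between 2 kb windows. A single best change in read rate around the start, fitted per replicate, lay 0.051 kb before it in replicate 3 alone. In replicates 1 and 2 it lay 15.9 kb inside the gene, as a drop. Around the end it lay 2.19 kb inside in replicates 1 and 2 and 3.81 kb past it in replicate 3. The body includes 9 called windows and 1 uncalled window at the 3′ edge (0.407, 0 and 1.35 RPKM), from 7 reads.

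Both flanks of Izumo1r were lower than the body. The upstream flank had 1.20, 0.951 and 1.22 RPKM, and the downstream flank 0.760, 0.476 and 0.745, below the body in all 3 replicates each. The log2 ratios were 1.10 (SE 0.24, limma adjusted p = 0.013) and 1.80 (SE 0.24, adjusted p = 0.0029). The downstream call held without each replicate in turn. The upstream call was lost without replicate 1 (adjusted p = 0.068) and without replicate 3 (0.056). Among the neighbours, Gpr83 on the downstream side, with H3K27me3 in 6 of 6 windows, stood at 0.815 ± 0.346, and Panx1, 98.2 kb upstream, at 2.21 ± 0.30 RPKM (SD, n = 3).

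Izumo1r was also the gene among the 8 with a called change along its body. The 5′ part had 2.82, 2.77 and 4.33 RPKM and the 3′ part 1.68, 1.59 and 2.03, without overlap. The log2 ratio of the 3′ to the 5′ part was -0.85 (SE 0.19, limma adjusted p = 0.022), beside 2.56% of 17134 protein-coding genes called lower and 16.8% called higher. The call was lost without any 1 replicate (adjusted p between 0.066 and 0.156) and when the spread was estimated without a trend on reads (adjusted p = 0.082). The profile was not a smooth slope, because the windows 8.95 kb and 14.9 kb from the start stood at 3.94 and 3.87 RPKM, above the windows between them at 1.17 and 2.01. The principal annotated transcript covers only the 2 windows next to the start, at 3.47 ± 1.26 RPKM, and 7 of the other 8 windows, which belong to longer annotated transcripts, were called at 2.31 ± 0.38 (SD, n = 3).

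Cd9 and Cd81 encode tetraspanins of the egg membrane that act in sperm-egg fusion, and they carried different marks. Cd9 (chr6:125460266-125494791, minus strand, 18 windows) had levels of 1.80, 1.59 and 1.47 RPKM from 389 reads. Cd81 (chr7:143052739-143067934, plus strand, 8 windows) had 0.543, 0.149 and 0.212 from 40 reads. The highest replicate of Cd81 was below the lowest of Cd9. Cd81 was lower than most genes of like length, with 13.7% below it, while Cd9 was near the middle with 52.1% below it.

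In Cd9 15 of 18 windows were called, and the start window was not among them. The start window had 0.951, 0 and 0 RPKM from 7 reads and was called for H3K4me3 alone. Only 0.791 kb of it lies in the gene, so 2 kb windows cannot tell a border at the start from one just inside. The next window had 2.04, 0.396 and 2.37. Uncalled windows at 0.926 and 0.891 RPKM, 5.79 and 11.8 kb from the start, broke the run, so the called run of 24 kb covered the 3′ part of the gene from 12.8 kb inside the start to 2.27 kb past the end. When runs were allowed to bridge 1 window it was 36 kb long and began 0.791 kb inside the gene, and with a call in each replicate it was 4 kb long. The 3′ part was at 2.11, 1.85 and 1.88 RPKM and the 5′ part at 1.49, 1.32 and 1.05. These values did not overlap, and the log2 ratio of 0.57 (SE 0.17, limma adjusted p = 0.056) missed the threshold.

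Cd9 stood out from both flanks. The upstream flank was at 0.652, 0.396 and 0.406 RPKM and the downstream flank at 0.923, 0.317 and 0.677. The log2 ratio was 1.58 against upstream (SE 0.23, limma adjusted p = 0.0038) and 1.31 against downstream (SE 0.28, adjusted p = 0.013). The upstream call held without each replicate in turn, and the downstream call was lost without replicate 1 (adjusted p = 0.057). The nearest coding genes were far off and low, with Plekhg6 at 0.287 ± 0.089 RPKM 79.5 kb downstream and Vwf, the gene of von Willebrand factor, at 0.762 ± 0.038 RPKM 52.0 kb upstream (SD, n = 3). Cd9 shares 3 windows with the antisense gene Gm28809 and 1 with Gm26728. Without the windows of other genes its level was 1.81 RPKM, and since ChIP-seq reads have no transcript strand, the mark of overlapping genes cannot be told apart.

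All 8 windows of the Cd81 body were called for H3K27me3, 2 of them also for H3K4me3. The 5 windows upstream were called for H3K27me3 as well, but only 1 of the 5 windows downstream was. H3K27me3 was called in at least 1 body window of 43.9% of protein-coding genes, and in 1 of the 8 genes here. No window exceeded a mean of 0.475 RPKM. Against the upstream flank (0.380, 0.317 and 0 RPKM) the log2 ratio was 0.44 (interval -0.90 to 1.77). Against the downstream flank (0.815, 0.555 and 0.745), which holds 1 called window, in Trpm5, it was -1.11 (SE 0.42, interval -2.12 to -0.11, limma adjusted p = 0.088). The body was below that flank in 3 of 3 replicates, short of the threshold. Its neighbours were also low, Tspan32 at 0.259 ± 0.190 and Trpm5 at 0.553 ± 0.122 RPKM (SD, n = 3). Cd81 shares 1 window with the noncoding gene R74862.

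Astl encodes ovastacin, the cortical granule protease that cuts ZP2 after fertilization. Its body (chr2:127338639-127357651, plus strand, 10 windows) had levels of 2.20, 2.02 and 2.74 RPKM from 294 reads, and all 10 windows were called. The peak was not at the start but 4.36 kb inside the gene, at 3.53, 3.96 and 5.41 RPKM. The second start that RefSeq lists for Astl lies in the window before this one. All 3 replicates were higher there than in the window before it, at 0.951, 1.19 and 1.69.

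The mark of Astl ran on past both ends. Its upstream flank had 1.17, 1.98 and 1.76 RPKM and its downstream flank 1.71, 1.59 and 1.02. The log2 ratios were 0.50 (SE 0.27, limma adjusted p = 0.201) and 0.68 (SE 0.28, adjusted p = 0.111), positive in 3 of 3 replicates on both sides but past the threshold on neither. With a flank of 20 kb the upstream ratio rose to 0.94 (adjusted p = 0.017). The phosphatase gene Dusp2 ends 0.262 kb upstream and shares 1 window with Astl, and it stood at 1.29, 2.38 and 2.54 RPKM. The called run of 32 kb took in both genes, from 8.64 kb before the Astl start to 4.35 kb past its end, and Adra2b, 5.56 kb downstream, was at 1.10 ± 0.49 RPKM (SD, n = 3). Without replicate 3 the run was 72 kb long and reached 44.3 kb past the end, when 1 window was bridged it was 116 kb, and with a call in each replicate it was 4 kb.

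Itpr1 encodes the type 1 inositol trisphosphate receptor, the channel that releases calcium from the endoplasmic reticulum at fertilization. Its body (chr6:108213096-108551109, plus strand, 338014 bases) was the longest of the 8 and held 168 valid windows. The levels were 2.69, 2.93 and 2.85 RPKM from 5991 reads, the smallest relative spread of the 8 genes at 4.31% of the mean. Of the 2484 protein-coding genes of 100 kb or more, 35 were higher, and their median was 1.34 RPKM. The mark covered the gene almost whole, with 166 of 168 windows called and 149 called in each replicate.

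**Figure D3:**
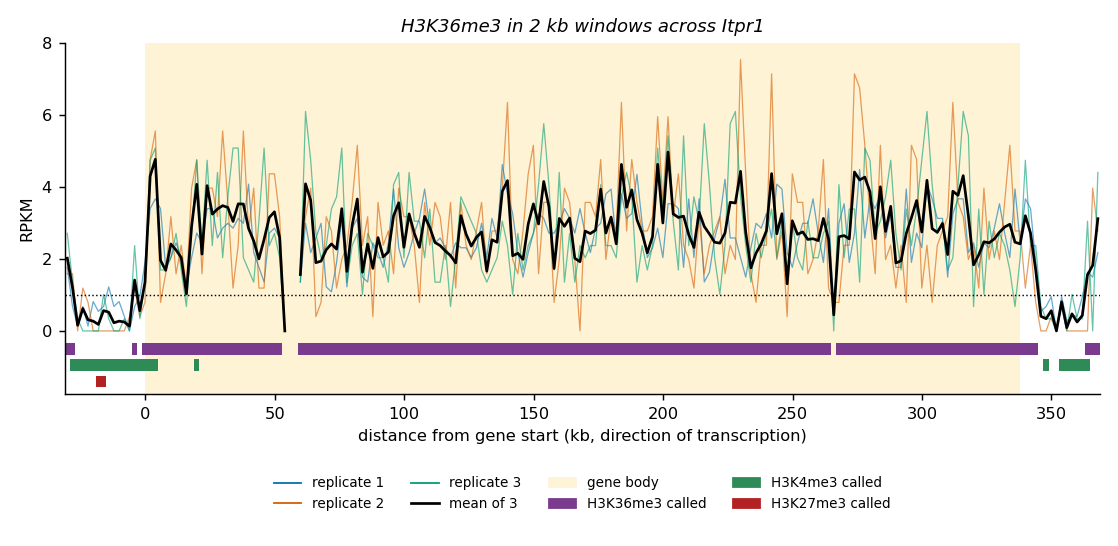
H3K36me3 (RPKM, linear axis) in 2 kb windows across Itpr1 and 30 kb on each side, against distance from the gene start (kb), with replicates (thin), mean (black; broken where windows are missing), gene body (shaded), threshold of 1 (dotted) and called marks as strips below 0. The mean rises at the start and falls past the end, and 2 windows inside the gene are uncalled.

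Of the 8 genes Itpr1 had the largest ratio of body to upstream flank. The upstream flank had 0.570, 0.396 and 0.609 RPKM, all below the body. The log2 ratio was 2.24 (SE 0.34, 95% interval 1.43 to 3.05, limma adjusted p = 0.004), and the call was lost without replicate 1 (adjusted p = 0.054). The start window was at 1.90, 0.793 and 1.35 RPKM and the next at 3.39, 4.76 and 4.74. All 5 upstream windows were called for H3K4me3, and that call ended in the third window of the body. The next gene upstream, Sumf1, was marked at 2.29, 2.30 and 2.28 RPKM, and the 13 gene-free windows between both genes were at 0.422 ± 0.153 (SD, n = 3) with 13 of 13 called for H3K4me3.

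Past the end of Itpr1 the mark went on for a few kb. A single best change in read rate over 10 windows on either side, fitted per replicate, placed the border 6.89, 4.89 and 6.89 kb past the annotated end in replicates 1, 2 and 3. At the start the same fit gave 1.10 kb before the start, 0.904 kb inside it and 5.10 kb before it. Beyond the border at the end the level was 0.543, 0.248 and 0.435 RPKM. The 10 kb downstream flank was at 2.04, 0.872 and 2.10 RPKM. Most of it lies before that border in replicates 1 and 3 but not in replicate 2. Against this flank the log2 ratio of 0.82 (SE 0.35, limma adjusted p = 0.123) missed the threshold. It passed with a flank of 20 kb (log2 ratio 1.45, adjusted p = 0.0045), with a pseudocount of 0.5 (0.67, 0.038) and with edgeR (0.71, 0.019). Bhlhe40, the next coding gene at 110 kb downstream, stood at 1.17 ± 0.36 RPKM (SD, n = 3).

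Along the body of Itpr1 the level was almost flat. Over 20 equal parts the means ran from 2.29 ± 0.46 in part 4 to 3.58 ± 0.53 RPKM in part 17 (SD, n = 3). Part 4 holds the window at 0 reads described below, and the next lowest was part 16 at 2.41 ± 0.29 RPKM. The 3′ part was at 2.84, 3.08 and 2.98 RPKM and the 5′ part at 2.54, 2.78 and 2.72, higher in 3 of 3 replicates with a log2 ratio of 0.14 (SE 0.06, interval 0.003 to 0.28, limma adjusted p = 0.144). The gene was broken in a pair of places. A window at 0 reads, 53.9 kb from the start, lies next to the 2 windows of the body left out by the authors' input filter, and a window 266 kb from the start had 0.543, 0.793 and 0 RPKM. Between them ran the called stretch of 206 kb, and 32 of the 75026 runs in the genome were longer. The run was 66 kb long with a call in each replicate and 286 kb when 1 window was bridged.

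Windows of Itpr1 that hold an annotated exon (61) were at 3.03 ± 0.02 RPKM and those of introns alone (107) at 2.71 ± 0.20 (SD, n = 3). The log2 ratio was 0.16 ± 0.11 and positive in 3 of 3 replicates, with an exact sign-flip permutation p of 0.25, the smallest possible. This split was chosen after the data were seen. In the other genes the same log2 ratio was 0.65 ± 0.51 in Zp2 and -0.37 ± 0.36 in Izumo1r, each with 1 sign in 3 of 3 replicates, and 0.17 ± 0.29 in Cd81, 0.11 ± 0.47 in Astl and 0.01 ± 0.24 in Cd9, with mixed signs (SD, n = 3). Zp1 and Zp3 have no window of introns alone. Of the genes of 100 kb or more, the profiles over 20 parts most like that of Itpr1 were those of Usp7 (Pearson r = 0.711), Susd1 (0.701) and Ptprm (0.661) among 2366 genes. They were picked as the highest r among these genes, and how high the largest r would be among unrelated profiles was not tested. These r are over 20 parts of single genes in the same libraries and describe shape only. Susd1 was at 0.336 ± 0.113 RPKM, Usp7 at 2.28 ± 0.27 and Ptprm at 2.15 ± 0.03 (SD, n = 3).

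**Figure D4:**
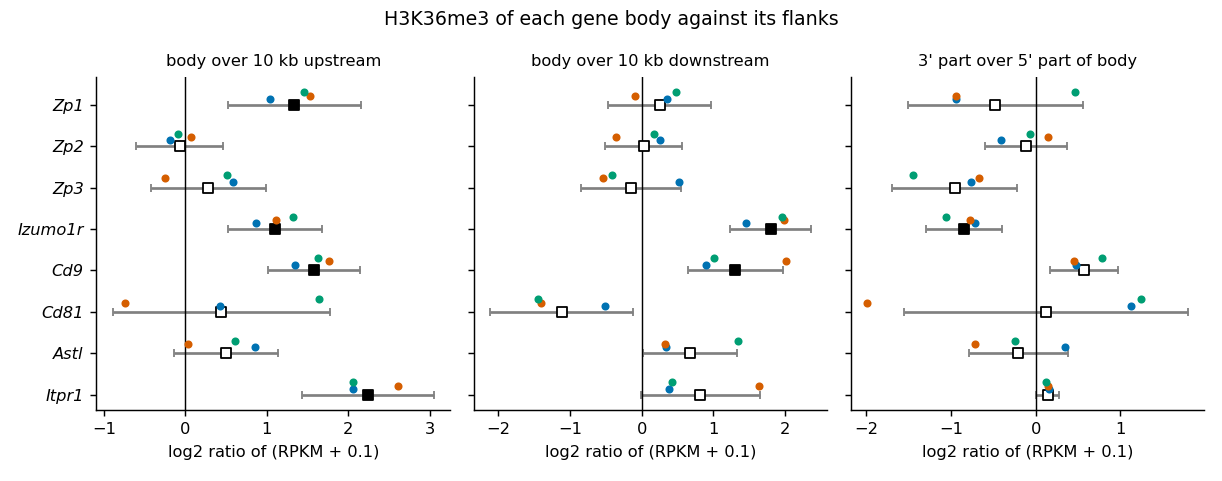
Log2 ratios of (RPKM + 0.1), linear axis in log2 units, of the body over the 10 kb upstream (left), over the 10 kb downstream (middle) and of the 3′ over the 5′ part of the body (right), with replicates as small points (colours for replicates 1, 2 and 3 as in the plot of levels), the limma estimate as a square (filled when called) and its 95% interval. Zp1, Izumo1r, Cd9 and Itpr1 are filled at the start, Izumo1r and Cd9 at the end, and Izumo1r along the body.

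Over the 8 genes, 4 were called higher in the body than upstream (Zp1, Izumo1r, Cd9 and Itpr1; 29.3% of all genes), and 2 were called higher than downstream (Izumo1r and Cd9; 23.4% of all genes). None was called lower on either side.

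The marks at the gene starts followed 3 patterns. H3K36me3 with H3K4me3 was called in the start window of 6 of the 8 genes (Zp1, Zp2, Zp3, Izumo1r, Astl and Itpr1), against 16.0% of 20788 protein-coding starts. Cd9 had H3K4me3 alone there, and Cd81 had H3K4me3 with H3K27me3, as did 24.9% of starts. Taken mark by mark, H3K36me3 was called at 6 of 8 starts (22.8% of all), H3K4me3 at 8 of 8 (78.0%) and H3K27me3 at 1 of 8 (32.9%). The start windows of Zp1, Zp2, Zp3 and Izumo1r were above 1 RPKM for H3K36me3 in each replicate. That of Astl, which it shares with Dusp2, was at 0.951 in replicate 1, and that of Itpr1 at 0.793 in replicate 2. The starts of Zp2 and Zp3 lie inside the longer called runs given above. Within the bodies H3K4me3 was called in 2 windows each of Zp1, Zp2, Zp3, Cd9 and Cd81, in 4 each of Astl and Itpr1, and in 7 of the 10 windows of Izumo1r, 6 of them with H3K36me3. In Itpr1 that is 4 of 168 windows, 3 of them the first of the body. The H3K4me3 and H3K27me3 calls have no replicates, so these counts carry no error.

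Genes that act with these 8 were read from lists, beside 52.5% of all protein-coding genes above 1 RPKM and their median of 1.10. Of 14 genes of egg activation and calcium signalling, 14 were above 1 RPKM (median 2.01), from Wee2, a kinase that holds the meiotic arrest, at 2.75 ± 0.39 and the calcium pump gene Atp2a2 at 2.63 ± 0.14 to Itpr3 at 1.39 ± 0.31 and the calcium sensor gene Stim1 at 1.34 ± 0.13. Of 5 further genes of the egg surface 4 were above 1 (median 1.58): the integrin genes Itgb1 at 2.44 ± 0.25, Itga6 at 1.58 ± 0.01 and Itgav at 1.57 ± 0.29, and the tetraspanin partner Ptgfrn at 2.19 ± 0.17, with the related Igsf8 at 0.670 ± 0.072. Of 8 genes of granule release 5 were above 1 (median 1.55), a share near that of all genes, from Nsf at 2.61 ± 0.17 and Rab27a at 1.93 ± 0.28 to Snap25, the form known from neurons, at 0.556 ± 0.171 and Stx4a at 0.497 ± 0.203 (SD, n = 3).

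The sperm side of the same steps was read from 22 genes. Of these, 9 were above 1 RPKM, with a median of 0.493, against 52.5% and 1.10 over all protein-coding genes. Tmem81 at 3.34 ± 1.32 and Acrbp at 2.79 ± 0.87 were highest, and Plcz1, the sperm phospholipase that triggers calcium release, at 0.249 ± 0.128 and Crisp1 at 0.17 ± 0.129 were lowest (SD, n = 3). H3K27me3 was called in at least 1 window of 15 of the 22, beside 43.9% of protein-coding genes. Of the receptor pair, Izumo1 was at 0.435, 0.951 and 0.0677 RPKM and Izumo1r at 2.25, 2.18 and 3.18, without overlap.

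**Figure D5:**
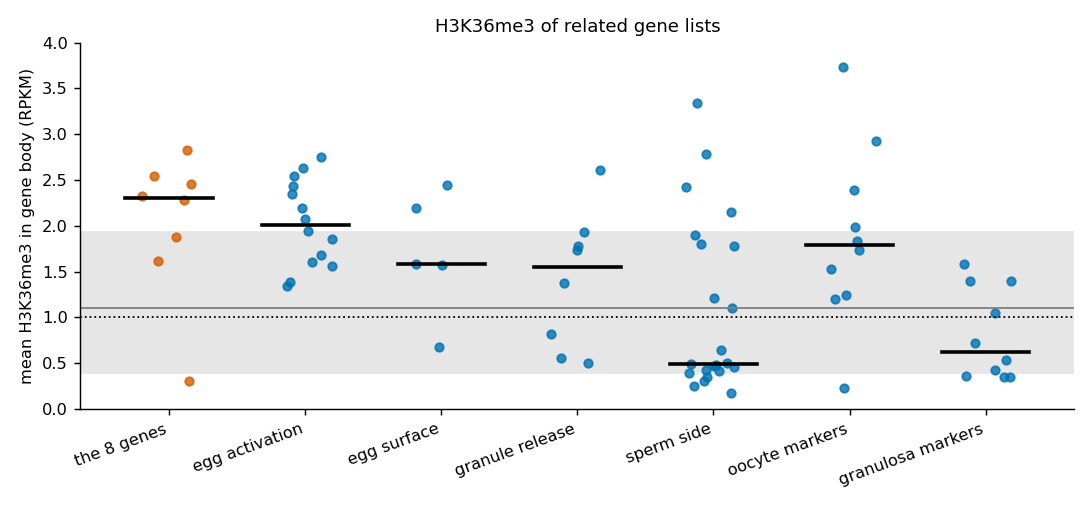
Mean H3K36me3 level of the gene body (RPKM, linear axis) of each gene of 7 groups (points, spread sideways only to be visible), with the list median (bar), the median and middle 50% of protein-coding genes (grey) and the threshold of 1 (dotted). The 8 genes have a median of 2.30, egg activation 2.01 and the sperm side 0.493.

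Relatives of the 8 genes by protein family were read beside the same 52.5% and 1.10. Of 6 genes with a zona pellucida domain 1 was above 1 RPKM (median 0.538), Zpld1 at 1.47 ± 0.21, followed by Umod at 0.740 ± 0.147, with Gp2 at 0.471 ± 0.150 and Tecta at 0.325 ± 0.098 lowest. Of 7 tetraspanin genes 2 were above 1 (median 0.374), Cd151 at 2.10 ± 0.64 and Tspan8 at 1.99 ± 0.33, with Cd37 at 0.315 ± 0.205 and Cd82 at 0.258 ± 0.171 lowest. The folate receptor genes, which share a family with Izumo1r, were at 0.414 ± 0.168 (Folr2) and 0.213 ± 0.150 (Folr1). Of 4 astacin proteases related to Astl, Tll1 was at 2.16 ± 0.17, Bmp1 at 0.389 ± 0.105, Tll2 at 0.364 ± 0.032 and Mep1a at 0.227 ± 0.056 (SD, n = 3).

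Of the 5 relatives of Itpr1 4 were above 1 RPKM (median 1.88). Ryr3 was at 2.33 ± 0.17, Itpr2 at 2.19 ± 0.09, Ryr2 at 1.88 ± 0.18, Itpr3 at 1.39 ± 0.31 and Ryr1 at 0.530 ± 0.132 (SD, n = 3). Itpr1 was above Itpr2 and Itpr3 in each of the 3 replicates. H3K27me3 was called in 36 of the 195 windows of Itpr2, in 7 of 34 of Itpr3 and in 0 of 168 of Itpr1.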

How the data were processed

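H3K36me3 was measured in 3 pools of GV oocytes. Per the study's methods and the submitters' processing notes, the authors mapped trimmed reads by Bowtie2 version 2.2.9 (GRCm38) and quantified 2 kb windows in SeqMonk, keeping windows with moderate input signal. Removal of duplicate reads is not given in the sources used here, so counts may hold PCR copies and cover counting error only. The deposited table gives a signal per window and replicate that the authors name RPKM, and a second deposited table names the marks called per window.

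All values were whole multiples of 1 read (100% within a tolerance of 0.001). Whether they are also divided by window length could not be settled, so they serve as relative levels. The deposited H3K36me3 call equalled a mean above 1 in every valid window (0 differences). A gene's level was the mean over the windows that overlap its body. Body and flank (5 windows, at least 2 valid) were compared by limma 3.58.1 (R 4.3.3), one-sample and two-sided, on log2(RPKM + 0.1) over all protein-coding genes, called at a Benjamini-Hochberg adjusted p below 0.05. The 0.1 shrinks the ratios of low genes. The variance followed a trend on reads, added after the data were seen because the fit without it missed raised genes in simulated data. Bodies of at least 4 windows were split at the midpoint. edgeR 4.0.16 on recovered reads called 6680 genes higher and 1259 lower than upstream, 5523 and 2171 than downstream, and 3602 and 554 along the body. P-values measure the spread between these pools only.

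Members and lists (egg surface, granule release, egg activation, sperm side, the zona pellucida domain, tetraspanin, folate receptor, astacin and calcium release families, oocyte and granulosa markers) were chosen with earlier results of these data known. Named were the 8 genes, their nearest coding neighbours and genes sharing windows, the 2 highest and 2 lowest genes of each list (all of lists up to 5) and the 3 genes most like Itpr1. Foxl2, Amh, Inhba, Izumo1, Upk3b and 4930505K13Rik were named after their values were seen.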

Additional observations from a re-analysis of the deposited data

How the results depend on the processing

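Samples could not be paired between conditions because they form a single group. Each ratio was taken within a library, so its test was paired by replicate. Of 363 values under alternative settings, 285 counted as unchanged. For ratios that meant the same direction and side of the threshold, and for gene levels a value within the spread of the replicates. Counts, shares and run lengths have no such spread here and counted as unchanged up to a 1.5-fold change. Of the 363 values, the sign changed in 10, all of ratios called under neither setting. The body to upstream log2 ratio of Cd81 was -0.015 with a flank of 20 kb and ran from -0.16 to 1.03 when 1 replicate was left out, and the body to downstream ratio of Zp3 was 0.81 with flank windows free of coding genes. Leaving out 1 replicate also gave body to downstream ratios from -0.090 to 0.22 for Zp2 and from -0.48 to 0.054 for Zp3, and ratios of the 3′ to the 5′ part from -0.24 to 0.038 for Zp2, from -0.44 to 1.18 for Cd81 and from -0.48 to 0.051 for Astl. The share of protein-coding genes above threshold fell to 22.7% at a threshold of 2. Of the 8 genes, 5 were above that threshold, where 7 were above 1. The number of the 8 genes with every window called fell from 4 to 1 with a threshold of 1.5, and likewise with a call above 1 in each replicate. Against upstream, the genes called lower numbered 1034, 2047 with a flank of 20 kb and 278 with flank windows free of coding genes. Against downstream they numbered 1732, 2882 and 410 under the same settings. Along the body 2884 genes were called higher and 439 lower, and 0 and 0 without a trend on reads (4101 and 737 at an unadjusted p below 0.05), where edgeR called 3602 and 554. Leaving out 1 replicate gave 2949 to 4971 genes higher than upstream and 219 to 667 lower, 2347 to 3763 higher than downstream and 578 to 1154 lower, and 0 to 1553 higher and 0 to 203 lower along the body, the lowest without replicate 1, the deepest. Fewer samples enter those fits, and the causes of the other changes were not tested. Depth limits single windows, since 1 read in replicate 2 was worth 0.396 RPKM.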
